A study of Mus musculus with 2 samples.

Results

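The microRNAs (miRNAs) miR-22-3p, miR-26a-5p and miR-26b-5p, small RNAs studied as regulators of smooth muscle differentiation, were measured by array in smooth muscle cells grown from mouse pulmonary arteries, with and without NOX1. They were chosen by their miRBase mature accessions, MIMAT0000531, MIMAT0000533 and MIMAT0000534, by a rule that uses no measured value, although earlier results of these data were known when it was written. All 3 were found among the 739 features of the array table, each on a feature that carries no other accession, and each had an intensity on both arrays.

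There were 2 arrays, 1 of NOX1-deficient cells and 1 of wild-type cells, each from 3 male mice of the C57BL/6 background. NOX1 is the catalytic part of an NADPH oxidase, an enzyme that makes superoxide. The sources used here do not give how the deficiency was made, the age of the mice, or whether material of the 3 mice was pooled. Cells of both genotypes were at passage 3, were plated at 150000 per well of 12-well plates and were kept for 24 hours in medium with 10% fetal bovine serum, so both arrays describe cells in serum.

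A miRNA guides the Argonaute complex to messenger RNAs that pair with its seed, bases 2 to 8 from its 5′ end, and lowers their translation or stability. Smooth muscle cells of the vessel wall can shift between a contractile, differentiated state and a proliferating one, and serum favours the proliferating state in culture. miR-22-3p has been described as promoting vascular smooth muscle differentiation in the mouse. miR-26a-5p has been described in human smooth muscle cells as holding back differentiation, with SMAD1, a transducer of bone morphogenetic protein signals, reported as a target. miR-26b-5p is its close relative with the same seed. The table holds miRNA features, so NOX1 itself, the targets of these miRNAs and the state of differentiation were not measured here.

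The mature sequences are shown because they separate the 3 miRNAs into the seed groups in which they act, with the seed in capitals. They come from RefSeq on build GRCm38.p6.
miR-22-3p: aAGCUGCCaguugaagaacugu
miR-26a-5p: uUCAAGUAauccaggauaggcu
miR-26b-5p: uUCAAGUAauucaggauaggu
miR-26a-5p and miR-26b-5p share the seed UCAAGUA, and no other mouse miRNA among the 1679 distinct mature names of that table has it. A further name, miR-6371, shares bases 2 to 7 with them. The seed AGCUGCC of miR-22-3p belongs to no other name in the table, and none shares its bases 2 to 7.

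Outside the seed the miR-26 pair is nearly identical. Over the first 21 bases, counted from 1 at the 5′ end, miR-26b-5p has the same base as miR-26a-5p at 19 positions. The 2 differences, written with the miR-26a-5p base first, are C11U and C21U, and miR-26a-5p has 1 further base at its 3′ end. Aligned from base 1 without gaps, the next most similar mature miRNA to miR-26a-5p matches it at 14 bases. A different miRNA is the next most similar to miR-26b-5p and matches it at 12. For miR-22-3p the most similar one matches at 14 of its 22 bases. How far the probe for one miR-26 miRNA also binds the other was not tested, and probe sequences were not used here.

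The hairpins from which they are cut are shown because miR-26a-5p has 2 of them, with the mature miRNA in capitals.
Mir22: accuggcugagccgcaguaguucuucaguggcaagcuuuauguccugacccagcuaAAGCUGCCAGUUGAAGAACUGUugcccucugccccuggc
Mir26a-1: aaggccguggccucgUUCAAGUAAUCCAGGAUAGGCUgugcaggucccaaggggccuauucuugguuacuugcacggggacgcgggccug
Mir26a-2: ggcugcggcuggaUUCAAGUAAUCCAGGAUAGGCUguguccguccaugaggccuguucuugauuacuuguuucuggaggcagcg
Mir26b: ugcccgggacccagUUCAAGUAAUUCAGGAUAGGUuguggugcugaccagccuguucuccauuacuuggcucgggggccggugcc
On GRCm38.p6, Mir22 lies at chr11:75463716-75463810, Mir26a-1 at chr9:119031796-119031885, Mir26a-2 at chr10:126995530-126995613 and Mir26b at chr1:74394310-74394394, all on the plus strand. Mir22 lies within the span of the long non-coding RNA gene Mir22hg. The miR-26 hairpins lie within the spans of the protein-coding genes Ctdspl, Ctdsp2 and Ctdsp1, in the order Mir26a-1, Mir26a-2 and Mir26b. These genes encode related small phosphatases that act on the C-terminal domain of RNA polymerase II. Because both miR-26a hairpins give the same 22 bases, the intensity of miR-26a-5p cannot be assigned to either locus. The products of their opposite arms differ at 6 of 22 positions, but the sources used here pair no array feature with those names.

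The first comparison asked whether the level of these miRNAs differs in smooth muscle cells that lack NOX1. All 3 miRNAs had intensities within 4% of each other on the 2 arrays. The values are linear intensities in arbitrary units as the authors deposited them, and their error is unknown because each genotype has 1 array, so no test of the genotypes was possible. In cultured cells measured in bulk, fewer cells that hold a miRNA and less of it per cell cannot be told apart.

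miR-22-3p read 1231.75 units in NOX1-deficient cells and 1188.50 units in wild-type cells. It was 43.25 units apart, a ratio of 1.036 and a log2 difference of 0.05, taken as NOX1-deficient minus wild-type. The higher reading was on the NOX1-deficient array with the deposited values, while quantile normalization and centring on the medians of all listed values both gave 0.00. miR-22-3p was the 10th brightest feature on both arrays and carried 1.10% of the summed intensity in NOX1-deficient cells and 1.04% in wild-type cells. These ranks show how far the reading stands above the dim end of the array, and do not order miRNAs by abundance, since probes differ in affinity and labelling.

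miR-26a-5p read 403.16 units in NOX1-deficient cells and 412.57 units in wild-type cells. The ratio was 0.977 and the log2 difference was -0.03, a lower reading without NOX1 that turned into a higher one, 0.06, when the arrays were centred on the medians of the 472 features measured on both. It ranked 28th on both arrays and carried 0.36% of the summed intensity on each.

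miR-26b-5p, the seed relative, read 17.75 units in NOX1-deficient cells and 17.36 units in wild-type cells, a gap of 0.39 units. The ratio was 1.022 and the log2 difference was 0.03, positive with the deposited values but -0.02 when the arrays were centred on the medians of all listed values. It was a much dimmer feature than the other two, with rank 122 in NOX1-deficient and 123 in wild-type cells. Its reading was 19.1 times the lowest listed value on the NOX1-deficient array and 18.1 times the lowest on the wild-type array. That its feature is dim does not show that the cells hold less miR-26b-5p than miR-26a-5p.

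**Figure D1:**
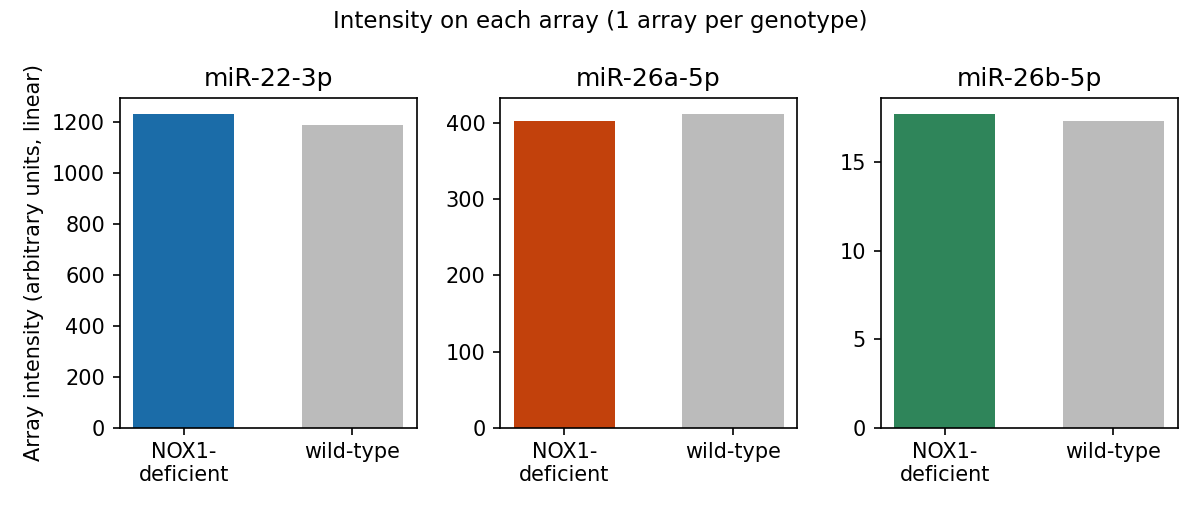
Intensity of miR-22-3p, miR-26a-5p and miR-26b-5p (arbitrary units, linear axis from 0, a separate scale for each miRNA), with 1 bar per array, coloured for NOX1-deficient and grey for wild-type cells. The bars of each pair have nearly the same height, with ratios of 1.036, 0.977 and 1.022, and no error bar can be drawn from 1 array per genotype.

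The next comparison set these differences beside those of the other features on the same arrays. Of the 3 miRNAs, 0 reached 1.5-fold in either direction. Among the 236 brighter features (mean log2 intensity at or above the median of the 472 measured on both arrays), 1.27% were higher by 1.5-fold or more in NOX1-deficient cells and 1.69% were lower by as much. The features past that fold all lay outside the brightest quartile of the 472, to which miR-22-3p and miR-26a-5p belong. Having 0 of 3 past that fold is therefore what most features on these arrays showed, and says nothing particular about these miRNAs. At a smaller threshold, a log2 difference of 0.32, the miRNAs again counted 0 in each direction, while 7.63% of the brighter features were higher and 8.9% lower. The median log2 difference of the 3 miRNAs was that of miR-26b-5p, 0.03, and that of the 236 brighter features was 0.01.

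miR-22-3p and miR-26a-5p belong to the brightest quartile, 118 features with a geometric mean over the 2 arrays of at least 19.9 units. The differences of these 118 features had a median of 0.03 and an SD across features of 0.18. Of the other 117 features there, 87 (74.4%) lay further from 0 than miR-22-3p and 101 (86.3%) lay further from 0 than miR-26a-5p. miR-26b-5p belongs to the next quartile, with geometric means from 4.44 to 18.7 units, where the median difference was -0.03 and the SD 0.29. There 106 of the other 117 features (90.6%) lay further from 0. The SD is a spread between features on 2 arrays, not an error of any one reading.

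Ordered by signed difference with the deposited values, all 3 miRNAs lay near the middle of the brighter features, while by size they were among those closer to 0. Among the other 235, 60.9% had a lower difference than miR-22-3p, 54.5% a lower one than miR-26b-5p and 43.0% a lower one than miR-26a-5p. Of the 236 brighter features, 54 (22.9%), these miRNAs included, lay no further from 0 than miR-22-3p, the member furthest from 0. With no replicate array, none of the 3 can be called changed or unchanged.

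**Figure D2:**
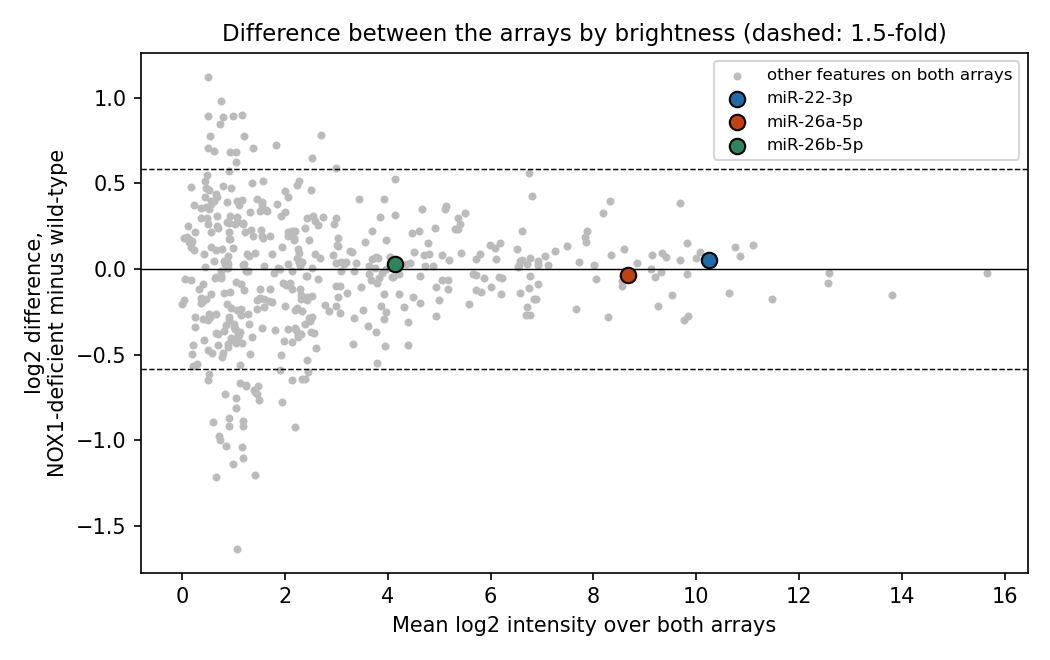
Difference in log2 intensity of NOX1-deficient minus wild-type cells (vertical axis) against the mean log2 intensity over both arrays (horizontal axis) for the 472 features measured on both, with the 3 miRNAs as large coloured points and dashed lines at 1.5-fold. The 3 points lie at 0.05, -0.03 and 0.03, close to the line at 0, and the grey points of other features spread more widely toward the dim end on the left.

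A further comparison set the 3 miRNAs against each other, as the difference of their log2 differences, in which any single scaling factor between the arrays cancels. miR-22-3p exceeded miR-26a-5p by 0.08, which is a ratio of ratios of 1.061. miR-22-3p exceeded miR-26b-5p by 0.02, a ratio of ratios of 1.014. Within the seed pair, miR-26b-5p exceeded miR-26a-5p by 0.07, or 1.046 as a ratio of ratios. All of these are smaller than the SD across features of either brightness quartile.

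The signs of miR-26a-5p and miR-26b-5p, and whether miR-22-3p stood above 0, depended on how the arrays were put on one scale, which the sources used here do not give for the deposited values. The median of the 472 features measured on both arrays was 4.26 units in NOX1-deficient and 4.56 units in wild-type cells. Centring on these medians added 0.10 to every log2 difference and gave 0.15 for miR-22-3p, 0.06 for miR-26a-5p and 0.13 for miR-26b-5p. It also moved the median of the 236 brighter features to 0.11, so relative to that median the 3 miRNAs stood where they had before. The medians over all values listed on each array ran the other way, with 3.42 units in NOX1-deficient and 3.31 units in wild-type cells. Centring on those, a setting chosen after seeing the data, gave 0.00 for miR-22-3p, -0.08 for miR-26a-5p and -0.02 for miR-26b-5p. Scaling to equal summed intensity gave 0.08, 0.00 and 0.06 in the same order of miRNAs. Quantile normalization gave 0.00, 0.00 and 0.01. A loess curve on brightness gave 0.05, -0.05 and 0.03, and log2(intensity + 50) gave 0.05, -0.03 and 0.01. In no case did any of the 3 pass a log2 difference of 0.32.

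**Figure D3:**
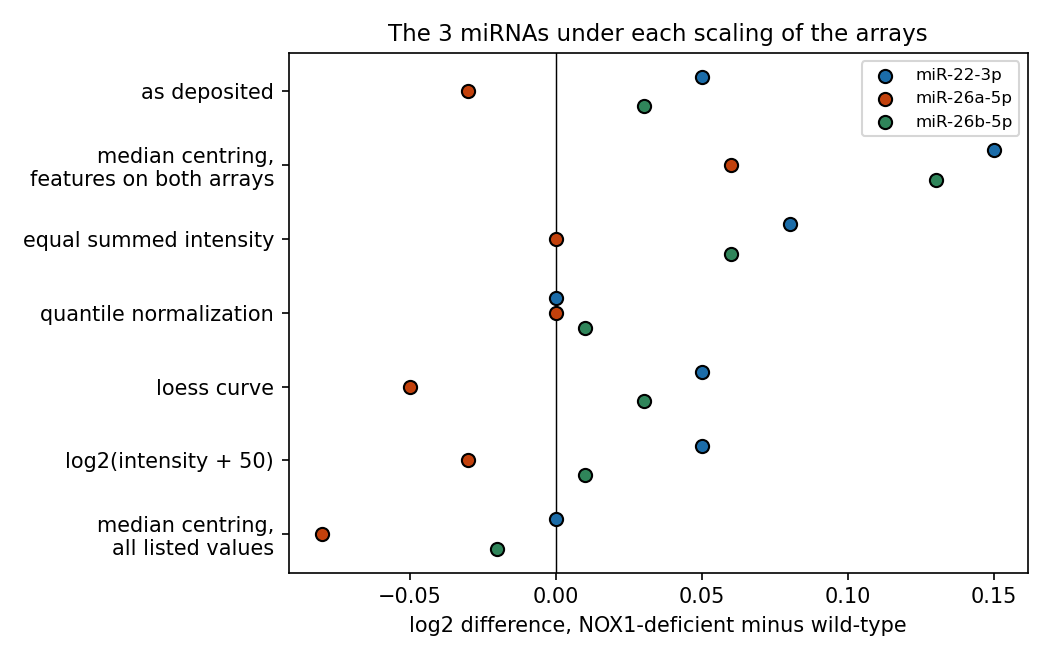
Difference in log2 intensity of NOX1-deficient minus wild-type cells (horizontal axis) for each miRNA under the deposited values and 6 other treatments of the intensities (rows), with 1 coloured point per miRNA. miR-26a-5p runs from -0.08 to 0.06 and miR-26b-5p from -0.02 to 0.13, both across the line at 0, and miR-22-3p from 0.00 to 0.15.

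Likeness to other features was measured as the distance between log2 intensities over the 2 arrays, which with 2 samples reflects mostly brightness. The nearest features to miR-22-3p were MIMAT0000219 at a distance of 0.252 and MIMAT0000521 at 0.344. MIMAT0000219 read 1107.56 units in NOX1-deficient and 1035.04 units in wild-type cells, a log2 difference of 0.10. MIMAT0000521 read 1045.29 and 999.29 units on the same arrays, a log2 difference of 0.06. Both were thus, like miR-22-3p, slightly brighter on the NOX1-deficient array with the deposited values.

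The feature nearest to miR-26a-5p was MIMAT0011211, at a distance of 0.141, with 374.91 units in NOX1-deficient and 386.30 units in wild-type cells. Nearest to miR-26b-5p was MIMAT0004894, at 0.063, with 17.01 units in NOX1-deficient and 17.55 units in wild-type cells. Their log2 differences were -0.04 and -0.05. The second nearest to miR-26a-5p, at 0.16, ran the other way, with 400.61 units in NOX1-deficient and 369.33 units in wild-type cells and a log2 difference of 0.12. The second nearest to miR-26b-5p, at 0.083, had a log2 difference of -0.04. Likeness by this measure thus did not fix the sign of the difference. The accessions of these features are paired with no miRNA name in the sources used here. For the same reason the lists of smooth muscle phenotype miRNAs and of markers of smooth muscle and other cell types were not evaluated, and the labelled cell type was not checked against markers.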

How the data were processed

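Per the labels' protocols, total RNA (miRNeasy mini kit) was labelled with the dye Hy5 (miRCURY LNA array kit). The deposited table gives 1 intensity per feature and array, taken as linear from its range and decimals. The sources used here do not give the scanner, the background correction or the normalization. Intensities were listed for 525 features on the NOX1-deficient and 546 on the wild-type array, with nulls for the other 214 and 193, and summed to 112103.3 and 114671.6 units.

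Differences were computed as log2 of the deposited intensities, NOX1-deficient minus wild-type, without pseudocount. The number of arrays limits the precision, and no p-value was computed. The members and lists were chosen with earlier results of these data known, although the rule for the members uses no measured value. Named features were the members by accession and, for likeness, up to 2 nearest features per member, limited to 2 higher and 2 lower in all because they have no names. Sequences, positions and enclosing genes came from RefSeq tables of GRCm38.p6, in which all 3 miRNAs matched by name. Counting past a fold was tried on simulated arrays with planted log2 changes of 1 or 2 in either direction. Those changes are far larger than the members' differences, and the noise was set below the spread between features here. The trial thus does not bear on the members. Alternatives were centring on the medians of the features measured on both arrays, the same over all listed values (chosen after seeing the data), equal summed intensity, quantile normalization, a loess curve (span 0.4), log2(intensity + 50), other brightness filters and thresholds of 0.32 on the log2 scale and of 2-fold. Keeping only features with a single accession was also listed, but it cannot move the members' differences, since each member's feature carries 1 accession. The loess curve came from statsmodels 0.14.6, intervals for shares from scipy 1.17.1 and figures from matplotlib 3.10.9, run under Python 3.11.15 with pandas 2.3.3 and numpy 2.4.6.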

Additional observations from a re-analysis of the deposited data

How the results depend on the processing

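Of 21 recomputed log2 differences of the 3 miRNAs, those with single-accession features could not move, and 2 others changed sign. These were miR-26a-5p with medians over the features measured on both arrays (0.06) and miR-26b-5p with medians over all listed values (-0.02, chosen after seeing the data). All moved by less than their quartile's SD, but that SD exceeds the differences themselves. Quantile normalization gave 0.00 for miR-22-3p and miR-26a-5p, which held the same rank on both arrays. It also turned the gap of miR-22-3p over miR-26b-5p to -0.01. The share of brighter features below miR-22-3p became 41.7% under quantile normalization and 80.0% with log2(intensity + 50), and that below miR-26a-5p became 28.9% with log2(intensity + 50), which shrinks the differences of dimmer features. Under quantile normalization, features tied with miR-22-3p at 0.00, miR-26a-5p among them, were not counted as below it. Centring and equal sums add a constant and cannot change these shares. Of the 14 shares recomputed under the other settings, 11 stayed within the exact 95% binomial interval of the share reported. That interval is only a yardstick, since the features are a fixed set, not independent draws. None of the 3 passed the threshold in any of the 8 settings. The counts of brighter features at least 1.5-fold higher and lower, 3 and 4, became 7 and 1 with medians over the features measured on both arrays, 19 and 34 without the brightness filter, and 18 and 21 at a log2 difference of 0.32. They became 0 and 0 with log2(intensity + 50), in the brightest quartile and at 2-fold. miR-26b-5p lies outside the brightest quartile and has no share there. With 1 array per genotype, no paired analysis was possible and no replicate could be omitted. Background signal was not used here, so the part of the dim miR-26b-5p reading that is signal is unknown.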
